A study of Mus musculus with 2 samples.

Results

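The genes described are the enzymes that cut the extracellular matrix, their inhibitors, and the enzymes that hydroxylate and crosslink collagen. Members were taken by gene symbol, which gave 52 of the 17145 rows of the deposited table. They comprised 14 matrix metalloproteinases (Mmp), 3 tissue inhibitors of metalloproteinases (Timp), 13 Adam genes, 12 Adamts and Adamts-like genes, 5 lysyl oxidases (Lox, Loxl), 3 lysyl hydroxylases (Plod) and 2 prolyl 4-hydroxylase alpha subunits (P4ha). RNA came from hepatic stellate cells, the vitamin A-storing pericytes of the liver sinusoid, isolated from mice with floxed Adar1 alleles and a tamoxifen-activated Cre recombinase (Adar1f/f/Cre-ER). Both groups carried these alleles and were left to activate in culture for 4 days, and 1 group received vehicle and the other 100 nM 4-hydroxytamoxifen (4-OHT), which switches on the recombinase and is meant to delete Adar1. Neither the promoter driving Cre-ER, the strain and age of the mice, nor the number of animals is given in the sources used here, and an effect of 4-OHT itself cannot be told apart from loss of Adar1. The deleted gene was not analysed here.

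Each group was 1 library, so every difference below is between these 2 libraries, with nothing to show how far replicate cultures would spread. Levels were taken to be FPKM, a unit the table's headers do not name: fragments per kilobase of transcript scaled to library size, so they can be compared between genes. A change is the log2 of FPKM plus 1 in the 4-OHT library over FPKM plus 1 in the vehicle library, a scale that shrinks the change of weakly expressed genes. Genes reaching 1 FPKM in the higher library were taken as measured and called lower or higher at 2-fold. Of the 52 members, 44 were measured, 39 of them with at least 1 FPKM in both libraries, and 8 were not. Of the 44, 5 were measured through 1 library alone, so their difference is partly set by that minimum. Depth recovered from the low values was 38.5 fragments per FPKM and kilobase for vehicle and 30.5 for 4-OHT.

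Markers of other liver cells were abundant in both libraries. The 18 macrophage markers checked were all measured and summed to 8245 FPKM with vehicle and 6046 with 4-OHT, and the 16 endothelial markers to 2336 and 2231 FPKM. Of 14 stellate markers, 11 were in the table, summing to 202 and 122 FPKM, and Colec11, Gfap and Ngfr were not analysed here. The most abundant of these was Dcn, at 121 FPKM with vehicle and 65.6 with 4-OHT, followed by Ecm1 at 42.8 and 41.1 FPKM. Lrat, a retinol-esterifying enzyme of stellate cells, was at 1.36 and 0.209 FPKM. Of the 10 stellate markers measured, 9 had a change below 0 and 1 above. Only 6 of the 10 reached 1 FPKM in both libraries. The others did so with vehicle alone, so this split is partly set by the minimum. Of 12 hepatocyte markers only Alb (1.41 and 0.334 FPKM) and Ass1 (15.7 and 37.3 FPKM) were in the table. In a bulk sample, fewer cells of a type and less RNA per cell cannot be told apart.

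Matrix metalloproteinases are zinc enzymes made as inactive precursors, and between them they cut collagens, elastin, laminins and proteoglycans. TIMP proteins bind their active sites, and Timp3 also blocks several ADAM and ADAMTS enzymes. ADAM enzymes release growth factors and cytokines from the cell surface, and ADAMTS enzymes are secreted and trim procollagens and large proteoglycans. Collagen chains are hydroxylated on proline and lysine inside the cell and crosslinked outside it by lysyl oxidases. In liver fibrosis, stellate cells that become myofibroblasts are known to make Timp1, Mmp2 and lysyl oxidases, while macrophages are a known source of Mmp12 and, in the mouse, of Mmp13 during scar resolution.

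The 4-OHT library held less mRNA for 11 of the 44 measured members, by at least 2-fold, and more for 3. With 5 FPKM added in place of 1, which weighs low genes less, only Mmp9 and Mmp10 stayed past 2-fold lower (1.21% of all measured genes) and only Timp3 higher (3.37%). The 11 lower genes were 6 metalloproteinases (Mmp9, Mmp10, Mmp3, Mmp2, Mmp19 and Mmp23), the inhibitor Timp2, the membrane protease Adam12, the crosslinking enzymes Lox and Loxl1, and the lysyl hydroxylase Plod2. The 3 higher genes were the inhibitor Timp3 and the proteases Adam33 and Adamts6. The lower share was 25% of members, against 3.49% of all 13571 measured genes. Without a minimum the count was 11 of 52, against 2.76% of all rows. It could not differ, since a gene under 1 FPKM in both libraries cannot reach 2-fold with 1 added. The higher share was 6.82%, near the 5.78% of all measured genes. The median change was −0.22 over the 44 members and −0.19 over all 52, against 0.03 over all measured genes. Of the 15 members at 30 FPKM or more with vehicle, 2 were lower, 1 was higher and 12 lay within 2-fold. The same shares over all genes at that level were not computed, so whether these counts are unusual cannot be judged.

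**Figure D1:**
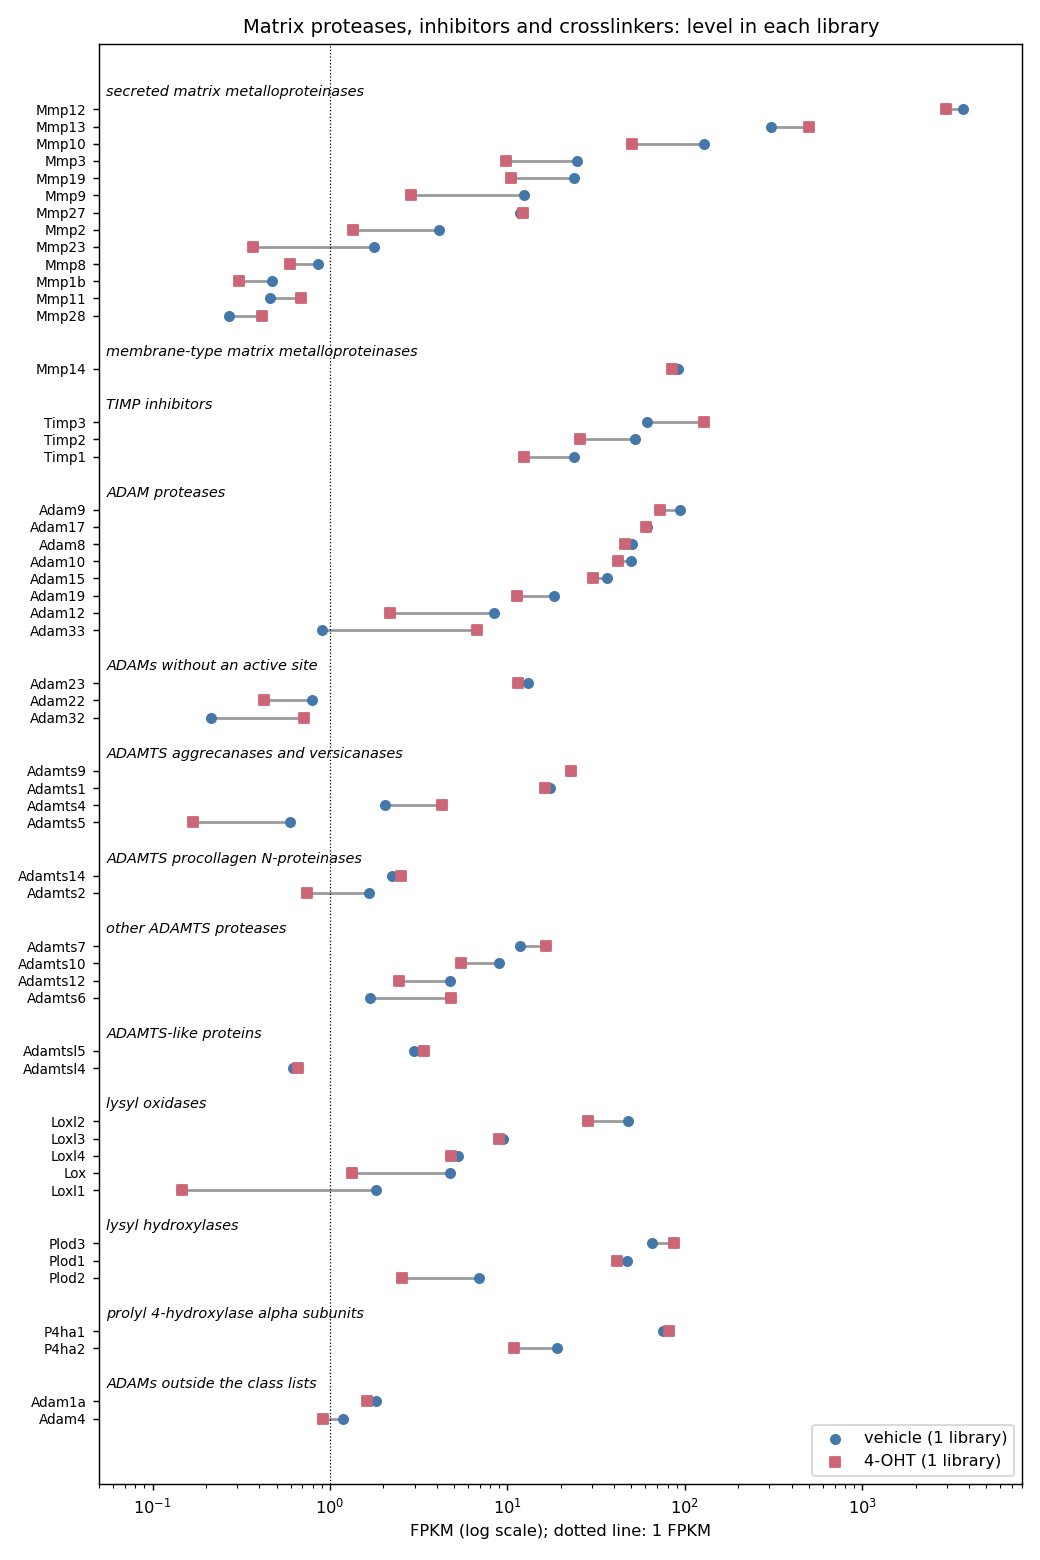
FPKM of all 52 members on a log axis, 1 row per gene in its class, with circles for the vehicle library and squares for the 4-OHT library (1 library each, so no error bars). Levels ran from 0.147 to 3701 FPKM, with Mmp12 far to the right of every other member in both libraries.

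In the authors' deposited table, 4 members were lower at a q-value under 0.05, Mmp9 (0.00466), Loxl1 (0.0252), Lox (0.0281) and Mmp10 (0.0479), and 2 were higher, Adam33 (0.0125) and Adamts6 (0.0412). These are 7.69% and 3.85% of the members, against 0.752% and 1.72% of all rows. The other members past 2-fold, Mmp3, Mmp2, Mmp19, Mmp23, Timp2, Adam12, Plod2 and Timp3, were not under that q-value, nor was Mmp13. How that test set its error without replicates is not given in the sources used here.

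Markers of several cell types were lower beside these members. Of 10 myofibroblast markers 9 were at least 2-fold lower, with a median change of −1.67 and a summed level of 446 FPKM with vehicle and 119 with 4-OHT. Acta2, the smooth muscle actin of myofibroblasts, was at 86.8 and 8.87 FPKM. The 10 measured stellate markers had a median of −0.81 with 3 lower, and the 6 measured mesothelial markers a median of −0.92 with 2 lower. Only 6 of these stellate markers and 1 of the mesothelial markers reached 1 FPKM in both libraries. The rest passed the minimum through the vehicle library alone, so both medians are partly set by that minimum. Macrophage and endothelial markers had medians of −0.25 and −0.33, with 3 of 18 and 2 of 16 lower. The part of these markers in the members' differences was not tested.

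**Figure D2:**
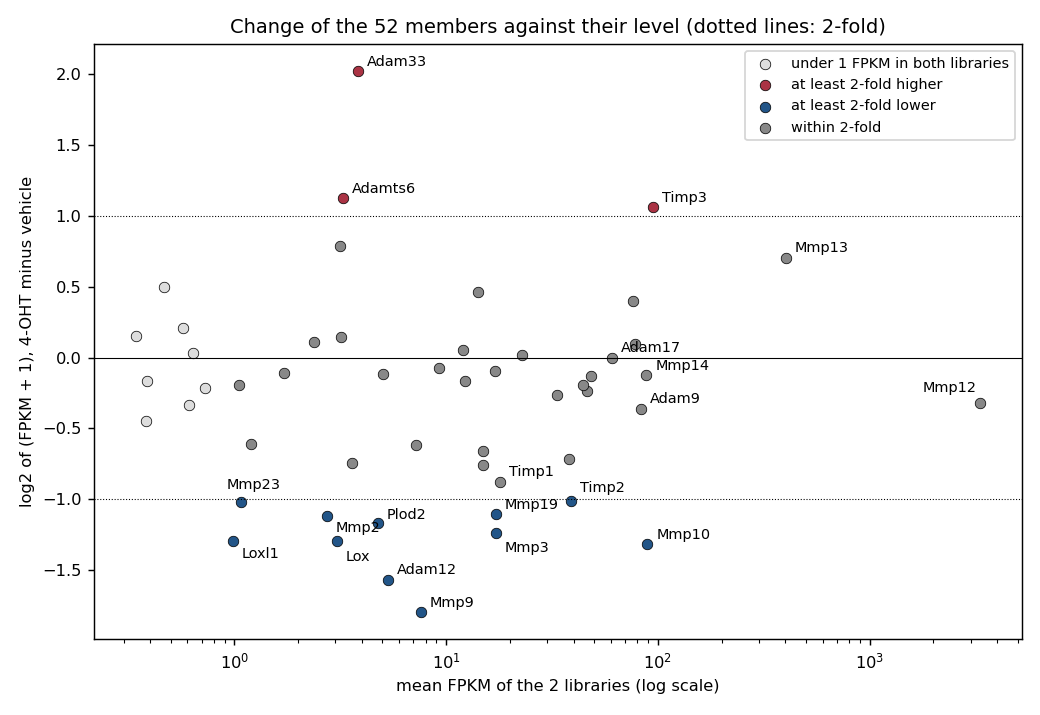
Change of each of the 52 members (log2 of FPKM plus 1, 4-OHT minus vehicle) against its mean FPKM on a log axis, 1 point per gene. The 11 lower members spread from about 1 FPKM (Loxl1, Mmp23) to about 90 FPKM (Mmp10), while Timp3 is the only abundant gene above the upper 2-fold line.

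**Figure D3:**
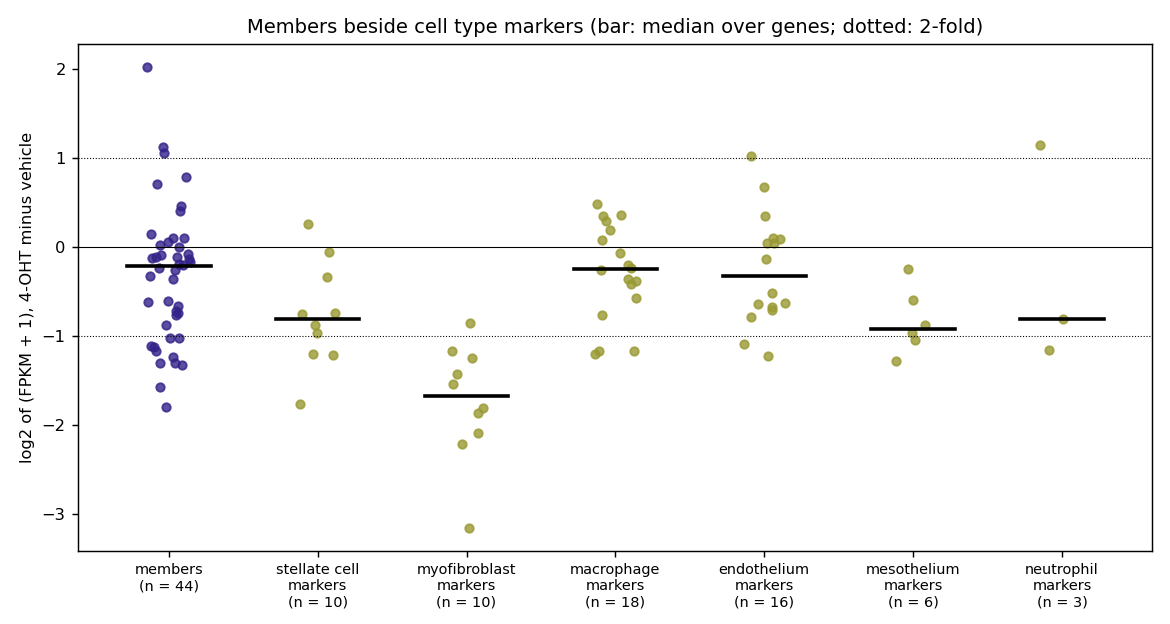
Change of the 44 measured members beside the measured markers of 6 cell types, 1 point per gene, with a bar at the median over genes. The myofibroblast markers lie lowest, with a median of −1.67, against −0.22 for the members.

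Mmp12, the macrophage elastase, was the most abundant member by far. It stood at 3701 FPKM with vehicle and 2961 with 4-OHT, rank 11 and rank 13 of all rows, and within 2-fold (log2 change −0.32). It made up 85.9% of the summed metalloproteinase FPKM with vehicle and 81.5% with 4-OHT. Among macrophage markers, Lyz2, macrophage lysozyme, was at 3050 and 1353 FPKM and C1qa, a complement subunit, at 515 and 430 FPKM, so Mmp12 was 7.18 times C1qa with vehicle and 6.89 times with 4-OHT. Against Lyz2 the same ratio was 1.21 and 2.19, against Cd68, a lysosomal protein, 9.43 and 5.87, and against Adgre1, the F4/80 antigen, 21.5 and 15.1. The ratio thus had no single direction over these 4 markers.

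Mmp12 lies in a row of Mmp genes on chromosome 9 (GRCm38) whose changes ranged from −1.32 to 0.71. Mmp13 (7272514 to 7283331, plus strand), the main interstitial collagenase of rodents, was at 306 FPKM with vehicle and 500 with 4-OHT, equal to 29458 and 38143 fragments. Its FPKM ratio was 1.63 (95% counting interval 1.61 to 1.66), higher but within 2-fold. Such intervals cover counting error only, not the spread between cultures. Farther along are Mmp3 (7445822 to 7455975) and Mmp10 (7502352 to 7510240), the stromelysins, which cut proteoglycans and laminin and activate other metalloproteinases. Mmp3 stood at 24.6 FPKM with vehicle and 9.85 with 4-OHT, and the ratio was 0.401, with 0.362 to 0.444 as its 95% counting interval. For Mmp10 the levels were 128 and 50.6 FPKM, which gave 0.396 (0.378 to 0.415). Thus both stromelysins were lower to nearly the same degree, and Mmp10 remained 5.21 times Mmp3 with vehicle and 5.14 times with 4-OHT. Over the same libraries Mmp13 went from 12.5 to 50.8 times Mmp3. Mmp27, a little-studied member and the last of the 7 analysed genes of the row, was at 11.8 and 12.3 FPKM.

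**Figure D4:**
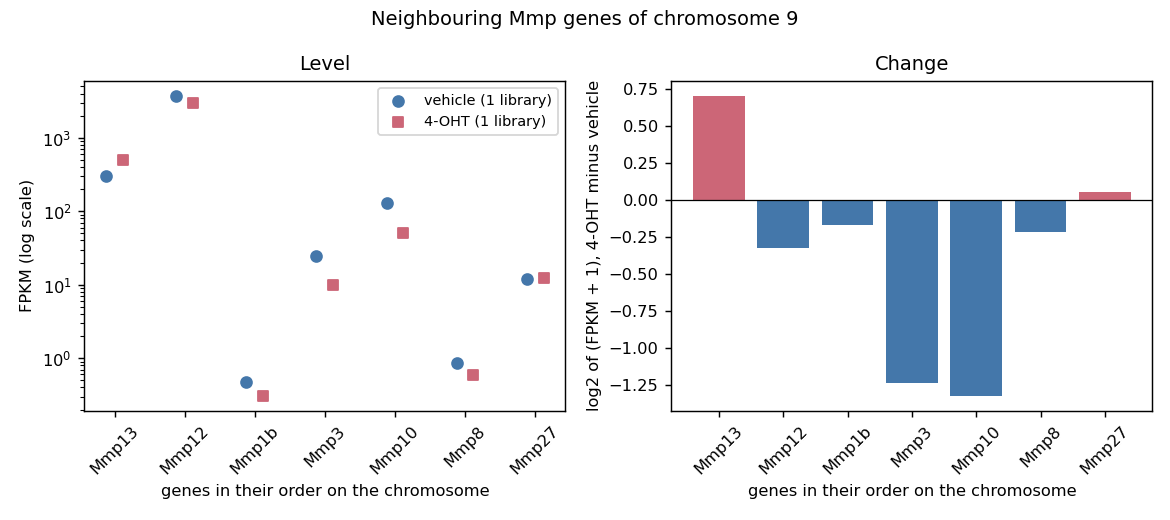
FPKM on a log axis (left) and log2 change (right) of the 7 analysed Mmp genes of chromosome 9, in their order along it, with 1 library per group. Mmp3 and Mmp10 reach −1.24 and −1.32, while Mmp13 lies at 0.71 and Mmp27 at 0.06.

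Mmp8, the neutrophil collagenase, was at 0.853 and 0.596 FPKM (74 and 41 fragments), a ratio of 0.699 whose 95% counting interval of 0.465 to 1.04 includes 1. Mmp1b, a rodent relative of interstitial collagenase, was at 0.469 and 0.308 FPKM, only 23 and 12 fragments, with an interval of 0.298 to 1.37. Its exons overlap those of Mmp12 on the other strand by 157 bases, and without a statement on strand its few fragments cannot be told apart from those of Mmp12. Neither gene showed a difference detectable at this depth.

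The promoters of this row are shown because most of the genes have a match for AP-1, the Fos and Jun dimer known to drive collagenase and stromelysin genes. The sequences are from RefSeq (GRCm38.p6, plus strand), each the 120 bases before a start site, with the AP-1 core TGANTCA in capitals where present.
Mmp13, chr9:7272394-7272513: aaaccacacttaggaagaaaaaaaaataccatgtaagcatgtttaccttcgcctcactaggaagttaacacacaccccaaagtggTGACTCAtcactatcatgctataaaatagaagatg
Mmp12, upstream start, chr9:7344277-7344396: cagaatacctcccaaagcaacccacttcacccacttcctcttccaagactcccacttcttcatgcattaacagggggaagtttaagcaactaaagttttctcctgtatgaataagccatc
Mmp12, downstream start, chr9:7347254-7347373: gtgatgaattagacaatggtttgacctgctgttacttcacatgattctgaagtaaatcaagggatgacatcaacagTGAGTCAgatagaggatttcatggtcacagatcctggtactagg
Mmp3, chr9:7445702-7445821: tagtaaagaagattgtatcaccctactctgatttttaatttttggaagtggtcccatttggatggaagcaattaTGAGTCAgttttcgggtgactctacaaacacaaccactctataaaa
Mmp10, chr9:7502222-7502341: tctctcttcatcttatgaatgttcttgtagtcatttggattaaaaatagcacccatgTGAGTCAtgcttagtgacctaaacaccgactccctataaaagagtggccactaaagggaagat
Mmp8, chr9:7558309-7558428: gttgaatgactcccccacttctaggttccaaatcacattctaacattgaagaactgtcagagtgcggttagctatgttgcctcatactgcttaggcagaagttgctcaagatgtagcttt
Mmp27, chr9:7571276-7571395: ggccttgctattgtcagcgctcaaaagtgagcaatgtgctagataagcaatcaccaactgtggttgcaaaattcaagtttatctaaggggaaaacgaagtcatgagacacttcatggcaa

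The core TGANTCA, which reads the same on both strands, began 35 bases before the start of Mmp13, 44 before the downstream start of Mmp12, 46 before that of Mmp3 and 63 before that of Mmp10. Over the 300 bases around each start, it was present in 8 of the 10 Mmp genes of the row with a RefSeq promoter, members or not, and in 1 of 27 other member genes with a promoter sequence, Adam19. The 18 members without a promoter sequence were not searched. Among these were Mmp9, Mmp2, Mmp19, Adam12, Lox, Loxl1, Plod2, Adam33 and Adamts6, all past 2-fold. Of all 32851 RefSeq promoters of this length, 7.81% hold it. The letters TATAAA, on either strand, were in 9 of the 10 and in 13.6% of all promoters. Of 7 measured AP-1 subunits none was past 2-fold, with a median of 0.54, and Junb was at 50.8 and 85.3 FPKM and Fosl1 at 7.44 and 13.7 FPKM. The core of the interferon-stimulated response element (GAAA, any 2 bases, GAAA), on either strand, was in the promoters of Mmp13 and Plod3 among 34 member genes with a sequence, against 3.44% of all promoters. These matches describe the sequence and are not evidence of binding.

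Other metalloproteinases were lower as well. Mmp9, gelatinase B (chromosome 2, 164940780 to 164955850, plus strand), which cuts denatured collagen and collagen IV, was at 12.4 and 2.85 FPKM, a log2 change of −1.80. It was the lowest of the 44 on this scale, while with 0.1 FPKM added Loxl1 was lower (−2.96 against −2.08), and with 5 added Mmp10 was (−1.26 against −1.15). Mmp2, gelatinase A, typical of mesenchymal cells, was at 4.11 and 1.35 FPKM (−1.12). Both gelatinases were thus lower in the 4-OHT library, but with 5 added Mmp2 was at −0.52 and within 2-fold. Mmp19, which cuts basement membrane proteins, was at 23.8 and 10.5 FPKM (−1.11), and its exons overlap those of Tmem198b on the other strand (5.09 and 3.39 FPKM). Mmp23, a membrane-anchored enzyme without the usual haemopexin domain, was at 1.77 and 0.367 FPKM (−1.02). It passed the minimum through the vehicle library alone, and with 5 added its change was −0.335. Of 11 neutrophil markers, cells that store Mmp9, only 3 were in the table, with Csf3r at 7.38 and 17.6 FPKM, S100a8 at 2.58 and 1.04 FPKM and Ltf, lactoferrin, at 2.33 and 0.490 FPKM. Their part in the Mmp9 difference was not tested. Mmp11 and Mmp28 stayed under 1 FPKM in both libraries.

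Mmp14, the membrane-type enzyme that activates the Mmp2 precursor, was at 92.0 and 84.4 FPKM (log2 change −0.12). Its partner in that activation, Timp2, was at 52.6 and 25.5 FPKM (−1.02). So of these 3 genes Mmp2 and Timp2 were lower, and the activating protease lay within 2-fold.

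Among the TIMP inhibitors, Timp3 took up a larger share and the others a smaller one. Timp3 (chromosome 10, 86300372 to 86349506, plus strand), the inhibitor that stays bound to the matrix, was at 61.3 FPKM with vehicle and 129 with 4-OHT, a log2 change of 1.06. Timp1 (chromosome X, 20870166 to 20874735, plus strand), the secreted inhibitor long used as a marker of fibrosis, was at 23.6 and 12.4 FPKM (−0.88). As shares of the summed TIMP FPKM, Timp3 went from 44.6% to 77.3%, Timp2 from 38.2% to 15.3% and Timp1 from 17.2% to 7.43%. The ratio of Timp3 to Timp1 was 2.60 with vehicle and 10.4 with 4-OHT. Shares and ratios within a library do not depend on the scaling between libraries, but the 2-fold calls did: with FPKM set to the same sum, Timp3 was within 2-fold at 0.90 and Timp1 reached −1.03. Timp3 lies within Syn3, whose exons overlap it on the other strand by 1733 bases and whose level was not analysed here. Timp4 was not analysed here.

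**Figure D5:**
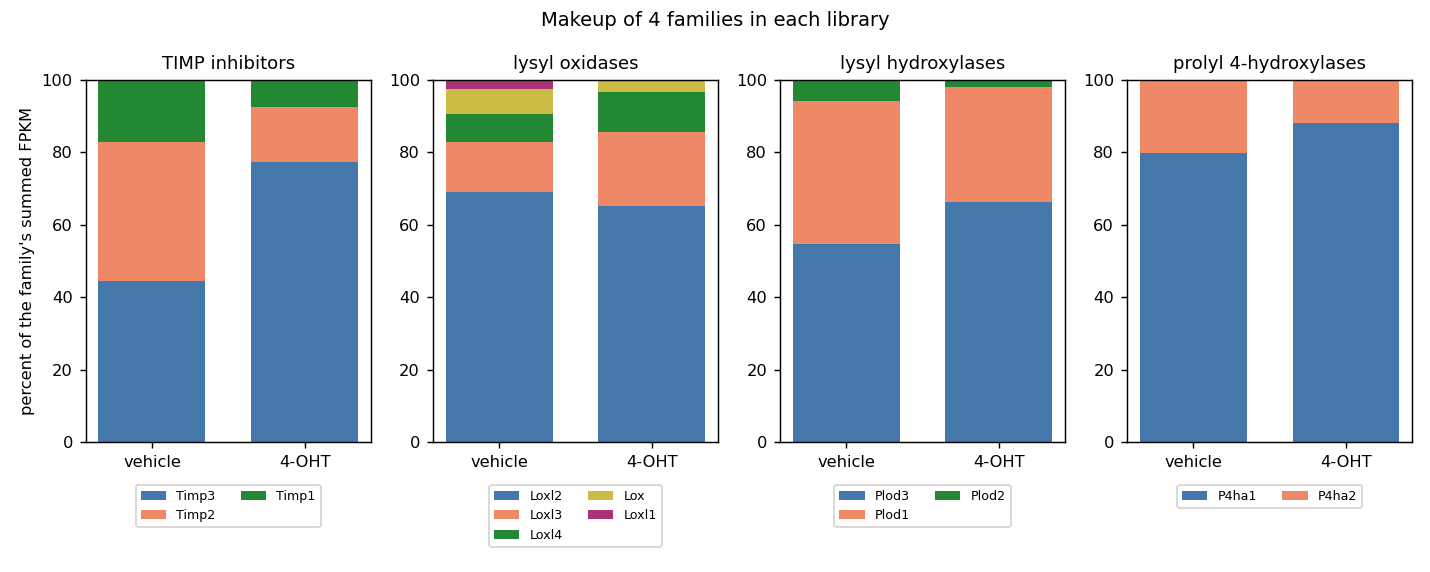
Share of each gene in the summed FPKM of 4 families, in percent, for the vehicle and the 4-OHT library (1 each). The Timp3 band widens from 44.6% to 77.3%, and the Lox, Loxl1 and Plod2 bands become thinner.

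Of 8 measured ADAM proteases of the cell surface 1 was lower and 1 higher, against 3.49% and 5.78% of all measured genes. Adam17, the enzyme that releases tumour necrosis factor, was at 60.9 and 60.8 FPKM, and Adam10, which sheds Notch receptors and cadherins, at 50 and 42.2 FPKM. Adam9, the most abundant of the class, was at 93.6 and 72.6 FPKM, and Adam8, a leukocyte member, at 50.3 and 45.9 FPKM. These 4 abundant sheddases thus differed little between the libraries. Adam15 (−0.26) and Adam19 (−0.66), which are known from vessels and heart, were within 2-fold too. Adam12, a protease of regenerating muscle and, in humans, of activated stellate cells, was at 8.42 and 2.18 FPKM (−1.57). Adam33 (chromosome 2, 131050591 to 131063814, minus strand), a smooth muscle and fibroblast member, went the other way, at 0.906 and 6.75 FPKM, a ratio of 7.45 and a log2 change of 2.02. It passed the minimum through the 4-OHT library alone, and with a pseudocount of 5 its change was 0.99, below the 1.02 of Timp3. Adam33 and Adam12, both mesenchymal genes, therefore differed in opposite directions.

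Among 14 substrates of these sheddases in the table, 11 were measured, 1 was higher and none was lower, with a median of 0.30. The higher gene was Tnf, which encodes tumour necrosis factor, at 20.8 and 76.7 FPKM (log2 change 1.83), beside the nearly equal Adam17. Its receptors Tnfrsf1a (50.8 and 55.3 FPKM) and Tnfrsf1b (41.4 and 54.7 FPKM), which are also shed, were within 2-fold. Hbegf, a growth factor of the EGF family, was at 24.1 and 35.9 FPKM.

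The ADAMs that lack an active site, and the sperm-associated ones, were low or little different. Adam23, an integrin ligand without protease activity, was at 13.1 and 11.5 FPKM. Adam22, a receptor of neurons, and Adam32 stayed under 1 FPKM. Adam1a and Adam4 were at 1.81 and 1.19 FPKM with vehicle and at 1.61 and 0.913 FPKM with 4-OHT, and Adam4 passed the minimum through the vehicle library alone. Exons of Adam1a are shared with Mapkapk5 on the same strand, so its fragments are uncertain.

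Of 10 measured ADAMTS genes, counting the Adamts-like gene Adamtsl5, 1 was higher and none lower, near the share of all measured genes past 2-fold. Adamts9 (22.5 and 22.9 FPKM) and Adamts1 (17.5 and 16.3 FPKM), which cut versican and aggrecan, were the most abundant. Adamts4, aggrecanase 1, was at 2.05 and 4.27 FPKM (log2 change 0.79), a value that is uncertain because the strand setting is not stated. Adamts5, the other main aggrecanase of cartilage, was under the minimum, at 0.594 and 0.170 FPKM. Since Adamts5 has 1 annotated transcript, its 243 and 55 fragments gave a ratio of 0.286 (95% counting interval 0.209 to 0.385). On the scale with 1 added Adamts4 was within 2-fold, while Adamts5, under 1 FPKM in both libraries, could not pass 2-fold whatever its change.

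Adamts2, which removes the amino-terminal propeptide of procollagen I, was at 1.66 and 0.744 FPKM (log2 change −0.61), and its relative Adamts14 was at 2.25 and 2.50 FPKM. Adamts2 passed the minimum through the vehicle library alone. Adamts12 and Adamts7, which cut cartilage oligomeric matrix protein, were at 4.74 and 2.44 FPKM (−0.74) and at 11.7 and 16.6 FPKM (0.46). Adamts10, which binds fibrillin microfibrils, was at 8.95 and 5.49 FPKM (−0.62). Adamts6, the closest relative of Adamts10, was the higher gene of the class, at 1.68 and 4.83 FPKM (1.12). With FPKM set to the same sum in each library, Adamts6 was at 0.99 and just within 2-fold. The microfibril-associated Adamtsl5 was at 2.96 and 3.38 FPKM, and Adamtsl4 stayed under 1 FPKM. Adamts13, a stellate cell product that cuts von Willebrand factor, was not analysed here.

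Lysyl oxidases, the copper enzymes that start collagen and elastin crosslinks, were lower by 2-fold in 2 of 5 cases, against 3.49% of all measured genes. Loxl1 (chromosome 9, 58287738 to 58313186, minus strand), which crosslinks elastin, was at 1.82 FPKM with vehicle and 0.147 with 4-OHT. These are 219 and 14 fragments, a ratio of 0.0807 (95% counting interval 0.0434 to 0.138), the smallest ratio of any member. Lox itself was at 4.74 and 1.33 FPKM (log2 change −1.30). Loxl2, which crosslinks collagen IV, dominated the family at 47.7 and 28.6 FPKM (−0.72). Loxl3 (9.48 and 8.95 FPKM) and Loxl4 (5.28 and 4.79 FPKM) differed little. Loxl1 passed the minimum through the vehicle library alone, and the calls of Lox and Loxl1 depend on the pseudocount: with 5 added, their changes were −0.62 and −0.41, beside −0.65 for Loxl2.

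Of the lysyl hydroxylases, Plod2, which modifies collagen telopeptides and so sets the type of crosslink, was at 6.96 and 2.54 FPKM (log2 change −1.17, and −0.67 with 5 added). Plod1, which acts on the helix, was at 47.5 and 41.4 FPKM, and Plod3, which also glycosylates hydroxylysine, at 65.6 and 86.8 FPKM (0.40). Plod2 was already the least abundant of the 3, and its share of the family went from 5.80% to 1.94%. Plod3 overlaps Znhit1 on the other strand. The prolyl 4-hydroxylase subunit P4ha1 was at 75.6 and 81.0 FPKM and its relative P4ha2 at 19.1 and 10.9 FPKM (−0.76), neither past 2-fold.

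The other enzymes and helpers of collagen synthesis mostly lay within 2-fold, and 14 of 16 measured were below 0, with a median of −0.45. Bmp1, the C-proteinase that activates Lox and procollagen, was at 20.4 and 9.78 FPKM (log2 change −0.99), and Fkbp10, a chaperone needed for the action of Plod2, was the 1 lower gene at 14.99 and 6.75 FPKM (−1.04). P4hb, the shared subunit of the prolyl 4-hydroxylases (253 and 207 FPKM), and the collagen chaperone Serpinh1 (182 and 149 FPKM) were within 2-fold. The 1 higher gene was Tgm2, tissue transglutaminase, a crosslinker of another kind, at 193 and 392 FPKM (1.02). Of 9 measured matrix substrates, 5 were lower, against 3.49% of all measured genes. Among them were Fn1, fibronectin, at 48.1 and 17.2 FPKM (−1.43), and Col1a1, Col1a2 and Col3a1. These collagen genes are also in the myofibroblast list above, so the 2 counts are not separate observations.

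Of 16 measured matrix proteases outside these families, 1 was lower, Prss23, a serine protease, at 78.5 and 20.9 FPKM (log2 change −1.86). Ctss, the cathepsin of macrophages, was at 788 and 1348 FPKM (0.77), Ctsd at 2639 and 1800 FPKM (−0.55) and Plau, urokinase, at 204 and 224 FPKM. Of 8 measured inhibitors outside the TIMPs, A2m, alpha-2-macroglobulin, which traps metalloproteinases, was lower at 11.02 and 2.75 FPKM (−1.68). Serpinb2, an inhibitor of urokinase, was higher at 6.29 and 14.5 FPKM (1.09). Reck, a membrane inhibitor of metalloproteinases, was at 1.27 and 0.792 FPKM.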

How the data were processed

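The authors deposited 1 table with 1 value per gene for each of the 2 libraries, a log2 fold change, and p-values and q-values, per the file headers. The headers name no unit for the deposited levels, which were taken as FPKM from the Cufflinks entry and from how low values fit whole fragments. Per the submitters' processing notes, STAR, Cufflinks and GRCm38 were used, with no version or role stated. Scaling between libraries and strand setting are not stated. The authors' log2 fold change used a pseudocount of 1, which held within 1e-09 in all rows. Members were matched on identifier to GENCODE M21 (52 of 52), and 34 to a RefSeq promoter. Depth was recovered from low FPKM values of genes with 1 transcript over 600 bases: with a transcript length less 176 (vehicle) or 170 (4-OHT) bases, 97.5% of 437 and 99.1% of 536 low values lay no more than 0.1 from a whole fragment count, where even spacing would give 20%. For the 8 members with 1 transcript, FPKM ratios have exact 95% binomial intervals (scipy 1.17.1) that cover counting error only. Scripts were tested on simulated data. The members, gene lists and thresholds were chosen with earlier results of these data known. Named genes were all members past 2-fold, the most abundant of each class and a listed set. The further members, and the genes named from other lists, were chosen after their values were seen.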

Additional observations from a re-analysis of the deposited data

How the results depend on the processing

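With 1 library per group, leaving out a replicate was not possible. No paired analysis was possible because each group has 1 library. The count of 11 lower members became 2 (Mmp9 and Mmp10) with a pseudocount of 5, 7 of 32 with a minimum of 5 FPKM and 18 at 1.5-fold, against 1.21%, 3.53% and 10.2% of all measured genes. The 3 higher members became 1 with a pseudocount of 5 (Timp3), 1 with the same FPKM sum in each library (Adam33) and 5 at 1.5-fold, against 3.37%, 4.71% and 11.7%. The scaling to the same FPKM sum put the median over all measured genes at −0.11 against 0.03. With it 12 members were lower, against 4.79% of all measured genes, Timp1 being the added one. The members' median of −0.22 was −0.26 and −0.20 with pseudocounts of 0.1 and 5, −0.19 with no minimum, −0.25 centred on all genes and −0.38 with the same sum. In alternatives chosen after seeing the data, the median was first −0.19 for the 39 members at 1 FPKM in both libraries. Of these, 9 were lower and 2 higher, against 2.61% and 4.55% of all genes at that level in both. In the other alternative, without Mmp12, Mmp13, Mmp9, Mmp19 and Adam8, which macrophages can make, it was −0.20 over 39 members. Of those, 9 were lower and 3 higher, against 3.49% and 5.78% of all measured genes. At a q-value under 0.01 the authors' deposited table called 1 member lower and 0 higher, in place of 4 and 2. No named member past 2-fold changed sign, but a pseudocount cannot change a sign and the scalings run were too small to do so. Depth limits the members with few fragments, such as Mmp1b, and how far any difference would recur in other cultures cannot be judged from these libraries.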
